A study of Mus musculus with 8 samples.

Results

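The control region of this 5C experiment is a stretch of mouse chromosome 5, far from the X-inactivation center that the other primers cover, and its contacts are described here across 4 edited X chromosomes. Its members are the primer pairs whose forward and reverse primers both lie on chromosome 5, which gave 26 forward by 26 reverse primers and hence 676 of the 297498 primer pairs of the design. They were chosen by position alone. Of the 676 pairs, 592 held at least 1 read in at least 1 library, 84 held none in any, and 358 held reads in all 8 libraries. The libraries came from undifferentiated (day 0) E14 cells, a male mouse embryonic stem cell (mESC) line of the 129/Ola background, and 2 libraries were made for each of 4 alleles of the X chromosome. In 245kb-INV, an interval of 245 kb that spans most of the Tsix-TAD, the topologically associating domain of the Tsix gene, is inverted. In Linx-51kb-INV, 51 kb of the Linx locus with its cluster of CTCF sites is inverted. In Chic1-4kbD and Chic1-14kbD, 4 kb and 14 kb of the Chic1 locus are deleted, which removes some or all of its CTCF sites. All 4 alleles thus carry an edit on the X chromosome, and the labels give none on chromosome 5. The libraries of an allele were independent clones, except those of Chic1-14kbD, which were 2 replicates of 1 clone. Libraries of wild-type cells were not analysed here.

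The 5C method (chromosome conformation capture carbon copy) cuts crosslinked chromatin with a restriction enzyme, here HindIII, ligates the ends of fragments that are near each other in the nucleus, and reads out the junctions with pairs of primers that anneal next to them. Contacts within a chromosome become rarer with distance, because neighbors along the fiber meet more often by polymer motion alone. Domains, loops and boundaries appear as departures from this decay, and a region with no edit shows how far counts depart from it or differ between libraries without one. The values are raw reads per primer pair, given below also scaled to the total of the library (CPM, counts per 1000000 reads).

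The region runs from 133246157 to 133472010 on chromosome 5 (mm9), which is 225.854 kb, and its 52 HindIII fragments leave 1 gap, of 14298 bp. It is nearly free of genes. The only annotated gene that overlaps it is a copy of 7SK, a small noncoding RNA, at 133277548 to 133277826 on the forward strand, which lies within the fragment of the forward primer F62. The nearest gene to the left, Auts2, a neurodevelopmental gene on the reverse strand, has its nearest edge 226.943 kb away, and the nearest to the right, the pseudogene Gm10051, starts 478.94 kb away. Fragments ranged from 318 to 12953 bp, with a median of 3301 bp.

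The fragments of 2 primer pairs carry much of what follows, since these pairs stood furthest above the distance decay of all pairs more than 50 kb apart and were the called pairs with fewer reads in both Chic1-14kbD libraries than in the other 6, relative to the library total. F76 with R61 and F83 with R59, numbered as in the deposited primer names, join sequence 74.0 kb and 100.8 kb apart. F76 lies at 133346648 to 133349660, R61 at 133272480 to 133275820, F83 at 133368148 to 133368465 and R59 at 133266758 to 133268299. None of the 4 overlaps an annotated gene. The primer sequences were not used here, so both ends of each fragment are shown, as 43 bases of the forward strand of the mm9 reference (NCBIM37), with the HindIII site in capitals.

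F76 left end, chr5:133346645-133346687: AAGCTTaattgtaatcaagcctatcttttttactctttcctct
F76 right end, chr5:133349621-133349663: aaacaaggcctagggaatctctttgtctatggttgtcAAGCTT
R61 left end, chr5:133272477-133272519: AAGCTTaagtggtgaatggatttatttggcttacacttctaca
R61 right end, chr5:133275781-133275823: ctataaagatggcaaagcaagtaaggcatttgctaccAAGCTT
F83 left end, chr5:133368145-133368187: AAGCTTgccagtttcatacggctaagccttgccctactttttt
F83 right end, chr5:133368426-133368468: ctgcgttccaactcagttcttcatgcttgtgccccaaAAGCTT
R59 left end, chr5:133266755-133266797: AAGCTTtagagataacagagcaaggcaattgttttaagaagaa
R59 right end, chr5:133268260-133268302: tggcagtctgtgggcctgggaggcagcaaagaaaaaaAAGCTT

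The longest exact match between the whole fragments, on either strand, was 13 bp for F76 and R61 and 31 bp for F83 and R59. Over all 552 pairs of kept primers it ranged from 8 to 89 bp, with a median of 14 bp. Within the last 100 bases at each end of the fragments the longest matches were 7 bp and 8 bp, and the median over all pairs was 8 bp.

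Total counts ranged from 1614282 in Chic1-14kbD replicate 2 to 21046109 in Chic1-14kbD replicate 1, so a pair with no read can stand for up to 0.142 CPM in the deepest library and up to 1.86 CPM in the shallowest (3 counts of the total). Chromosome 5 pairs held 1.06% and 0.973% of all counts in 245kb-INV, 0.956% and 0.747% in Linx-51kb-INV, 0.948% and 1.01% in Chic1-4kbD, and 1.28% and 1.47% in Chic1-14kbD. The widest 95% Wilson interval of these shares was 0.0371 percentage points, and like all such intervals it covers counting error only, since reads without molecular identifiers are not independent molecules. Pairs that join chromosome 5 to the X chromosome held between 1.18% and 2.34% of the counts in the 6 libraries of the other alleles but 0.278% and 0.130% in those of Chic1-14kbD, and the part of this difference in the comparisons with Chic1-14kbD was not tested.

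Some primers gave few or no reads. Forward primers F68, F78 and F97 and reverse primers R102 and R108 had a summed count below 0.1 times the median of their type on chromosome 5 and were left out, F97 and R108 with no read at all. The 124 pairs they form held 0.103% of the chromosome 5 counts. The remaining 23 forward and 24 reverse primers form 552 pairs, of which 488 had a mean count of at least 10, 355 of at least 50, and 22 were less than 4 kb apart. The highest summed counts were 140665 for F87, 4.46 times the median of the forward primers, and 98742 for R75, 2.80 times that of the reverse primers. Across the 47 kept primers, the log of the summed count had a Pearson r of 0.0074 with fragment length and -0.168 with GC content (Spearman -0.0089 and -0.205). These are correlations across fragments of 1 region, which share every library, and are given without a test.

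Contacts on chromosome 5 fell with distance in every library. From 4 to 230 kb, the mean over the 8 libraries fell from 81.5 CPM per pair in the nearest of 8 distance bins, centered on 5.15 kb, to 18.6 CPM at 23.5 kb and 5.50 CPM at 179 kb. The slope of log10 contacts on log10 distance was -0.77 and -0.76 in 245kb-INV, -0.81 and -0.73 in Linx-51kb-INV, -0.80 and -0.73 in Chic1-4kbD, and -0.77 and -0.92 in Chic1-14kbD, with a mean of -0.785 ± 0.0612 (SD, n = 8 libraries). The steepest slope was that of the shallowest library, and the other 7 lay between -0.81 and -0.73. The alleles did not differ beyond the spread between libraries (two-sided exact permutation test over all ways to put the libraries into 4 groups of 2, p = 0.638, where the smallest p this design allows is 0.00952).

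The decay of chromosome 5 was shallower than that of the X chromosome and its contacts were fewer at every distance. For this comparison, X-chromosomal pairs were taken only where both fragments lie on the same side of the edited stretch, X:100368310 to 100629919 (mm9), which reaches from 4930519F16Rik to Tsx with 10 kb added on both sides, so that the edits do not change their distance. The X slope was -0.893 ± 0.0442 (SD, n = 8), and the chromosome 5 slope was less negative in 8 of 8 libraries, by 0.108 ± 0.0342 (range 0.0517 to 0.146). A two-sided exact permutation test that flips the sign of each library gave p = 0.0078, the smallest it can give. The lowest differences were those of Chic1-14kbD, 0.0675 and 0.0517. In these male cells there are a pair of copies of chromosome 5 and a single X chromosome. At equal distance the mean count of a chromosome 5 pair was 0.679 ± 0.0375 times that of an X pair (SD, n = 8, range 0.616 to 0.735), or -0.56 ± 0.080 on the log2 scale. Each of the 8 libraries was below 1, with p = 0.0078 in the same exact permutation test. Without F76-R61 and F83-R59 the slope difference was 0.0858 and the level was -0.66 on the log2 scale. With the median in place of the mean of the pairs in a bin, they were 0.0574 (exact permutation test, p = 0.0469) and -1.08. Each chromosome has 1 set of primers, so chromosome and primer set cannot be told apart.

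Bin by bin, all 8 libraries were below the X chromosome at all 8 distances. The log2 ratio was -0.94 ± 0.36 at 5.15 kb, -0.68 ± 0.14 at 8.55 kb, -0.80 ± 0.17 at 14.2 kb, -0.91 ± 0.14 at 23.5 kb, -0.81 ± 0.083 at 39.1 kb, -0.33 ± 0.15 at 64.8 kb, -0.52 ± 0.11 at 108 kb and -0.32 ± 0.20 at 179 kb (SD, n = 8). The ratio was therefore nearer to 0 in the bins beyond 50 kb than in those below. Single pairs weighed on these bins. The bin at 64.8 kb, with a mean of 10.7 CPM per pair, holds F76-R61, at a mean of 253 CPM. The bin at 108 kb, with a mean of 6.55 CPM, holds F83-R59, at a mean of 56.6 CPM, and the bin at 179 kb holds neither. The ratios of single bins without these pairs were not computed. The number of chromosome 5 pairs behind a bin ranged from 15 in the nearest to 134, against 328 to 9291 X pairs.

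**Figure D1:**
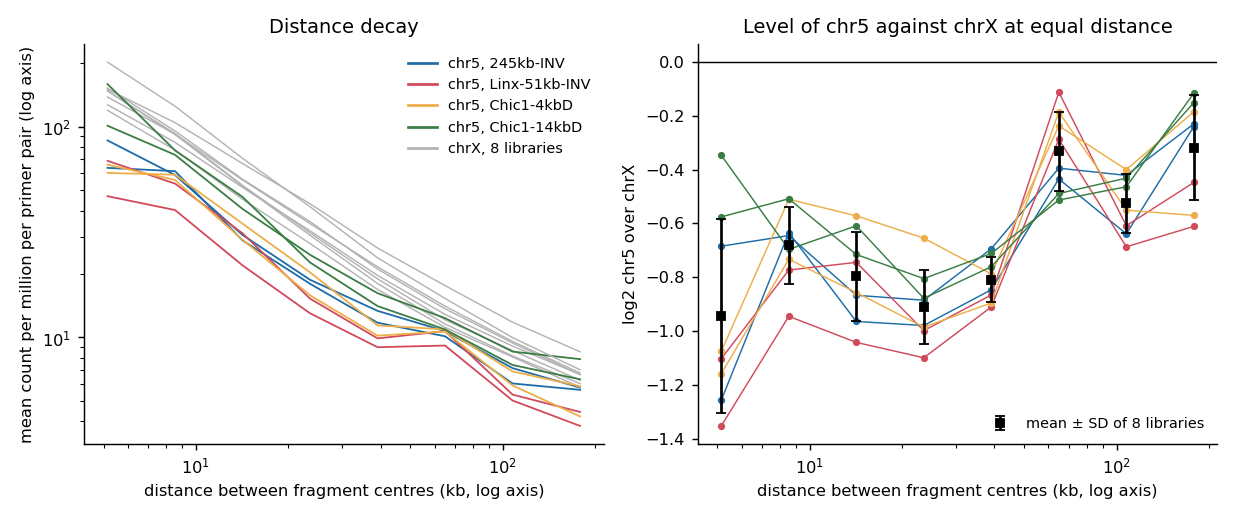
Left, mean CPM per primer pair in 8 distance bins against the distance between fragment centers (both axes logarithmic), with 1 colored line per library for chromosome 5 and 1 gray line per library for X-chromosomal pairs outside the edited stretch. Right, the log2 ratio of the same values for each library (colored) and their mean ± SD over 8 libraries (black squares), which lies below 0 in every bin, from -0.94 in the nearest to -0.32 in the farthest.

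Beyond distance, single pairs departed widely from the decay. The log2 ratio of the observed count to that expected from the distance in the same library, averaged over libraries, had an SD of 1.29 across the 334 pairs whose mean count was at least 50 and at least 4 kb apart, and ranged from -3.79 to 4.26 over the pairs. Much of this spread was shared by all pairs of a primer. The mean ratio of a forward primer ranged from -2.41 to 1.11 and that of a reverse primer from -1.45 to 1.21, and after these means were removed the SD across pairs was 0.801. The values of 1 pair in the 8 libraries had a median SD of 0.767. This is a spread of single libraries, unlike the SDs above, which are of means over libraries.

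The highest ratios among the 187 such pairs more than 50 kb apart were those of F76-R61, at 4.26 ± 1.67 on the log2 scale (SD, n = 8), F83-R59, at 2.53 ± 1.80, and F58-R75, 77.6 kb apart, at 1.86 ± 0.53. After removal of the primer means these became 4.01, 3.22 and -0.21. F58 and R75 stood high with most of their partners, as 16 of the 23 pairs of each were above the decay, with a median of 1.08 and 1.18. F76, R61, F83 and R59 did not, with a median between -0.32 and -0.17, so that F76-R61 and F83-R59 stood out from the other pairs of the same primers. The lowest ratios were those of F107-R82 (-3.27 ± 3.97), F109-R94 (-2.60 ± 2.35) and F89-R73 (-2.56 ± 3.57). Each of these had no read in at least 1 library and 197 or more in Chic1-14kbD replicate 1, more than in any other library. Their mean counts, 72.6, 52.3 and 68.3, passed the minimum of 50 with these reads. Across libraries their ratios ranged from -8.19 to 1.13, from -7.17 to -0.38 and from -8.63 to 0.024. The means thus rest on libraries with counts near 0, where the pseudocount sets the ratio, and do not show a steady depletion. F107-R82, for example, had 0 and 0 reads in 245kb-INV, 25 and 0 in Linx-51kb-INV, 14 and 99 in Chic1-4kbD, and 434 and 9 in Chic1-14kbD.

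**Figure D2:**
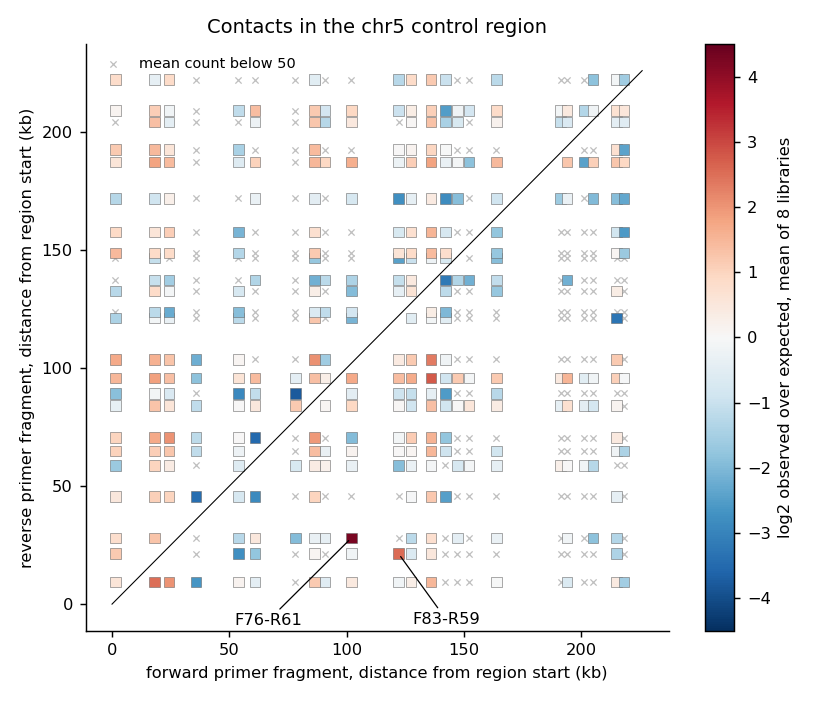
Mean log2 ratio of observed to expected count over 8 libraries for each chromosome 5 primer pair, with the position of the forward primer fragment on the horizontal axis and that of the reverse primer fragment on the vertical axis, in kb from the start of the region. Colored squares are pairs whose mean count was at least 50, crosses are pairs below it, and F76-R61 is the darkest red square, at 4.26.

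The insulation score was highest at the boundaries scored in the left part of the region and lowest at those in the right. It is the log2 of the mean observed to expected ratio in a square of 100 kb at each boundary between fragments. The square takes pairs with 1 fragment within 100 kb to the left of the boundary and the other within 100 kb to its right. Boundaries less than 50 kb from either end of the region were not scored, and squares that reached past an end were cut short. The score fell from 0.233 at 133346647 to -0.0781 at 133349660, the left and right edge of the F76 fragment. It was lowest at 133406916, 161 kb from the start of the region, in 7 of 8 libraries, and at 133384256 in Linx-51kb-INV replicate 2. The last boundary scored was 133413031, and the square at 133406916 was cut short on the right. The lowest score of a library was -0.38 and -0.58 in 245kb-INV, -0.62 and -0.48 in Linx-51kb-INV, -0.54 and -0.51 in Chic1-4kbD, and -0.26 and -0.39 in Chic1-14kbD. The Chic1-14kbD and 245kb-INV values overlapped, and the alleles did not differ beyond the spread between libraries (mean -0.47, exact permutation test, p = 0.286). In a square of 50 kb the mean lowest score was -0.94. Primer means were not removed from the ratios behind this score, so differences between primers remain in the profile, and their part was not tested. Single pairs also weighed on this profile. Without F76-R61 and F83-R59 the step at F76 was from 0.106 to -0.0261 and the mean lowest score was -0.33 (exact permutation test, p = 0.943).

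**Figure D3:**
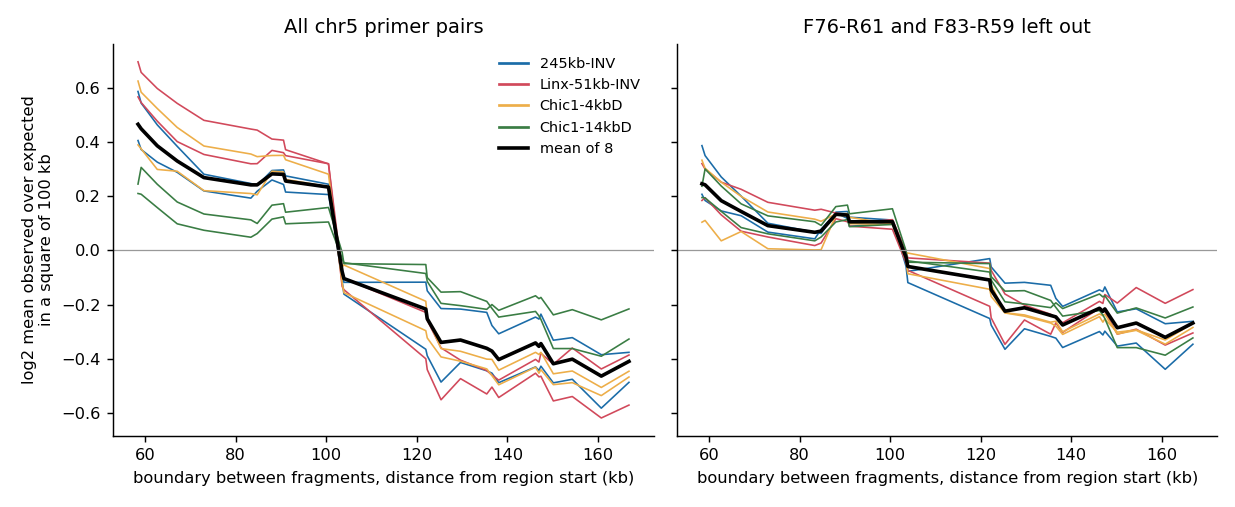
Insulation score on the log2 scale in a square of 100 kb against the position of the boundary, in kb from the start of the region, with 1 line per library colored by allele and their mean in black. The left panel uses all pairs and falls from 0.233 to -0.0781 across the F76 fragment, and the right panel leaves out F76-R61 and F83-R59 and falls from 0.106 to -0.0261.

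Libraries of 1 allele differed at a chromosome 5 pair about as much as at an X pair of like distance and count. Over 333 chromosome 5 pairs whose mean count was at least 50, the median absolute log2 ratio between the libraries of an allele was 0.735 in 245kb-INV, 0.796 in Linx-51kb-INV, 0.727 in Chic1-4kbD and 0.533 in Chic1-14kbD, and the median of these corresponds to a fold of 1.66. The matched X values were 0.812, 0.814, 0.673 and 0.630, with a fold of 1.68. Chromosome 5 was the lower in 3 of the 4 alleles and the higher in Chic1-4kbD. With 4 alleles a sign-flip test cannot pass the threshold, so none is given. The Chic1-14kbD libraries, replicates of 1 clone, were the nearest to each other although 1 of them was the shallowest. Between libraries of different alleles the median was 0.812 on chromosome 5 and 0.845 on the X chromosome.

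The chromosome 5 maps were no more alike within an allele than between alleles, as far as 8 libraries can tell. Pearson's r of the log2 observed to expected ratios over 334 pairs was 0.354 in 245kb-INV, 0.399 in Linx-51kb-INV, 0.564 in Chic1-4kbD and 0.680 in Chic1-14kbD, and from 0.319 to 0.660 across the 24 pairs of libraries of different alleles. These pairs share primers, and r is given as a description. The mean r was 0.499 within and 0.469 between alleles, a difference of 0.031 (the same exact permutation test, p = 0.4). The sign of this difference turned without Chic1-4kbD replicate 2 (-0.0039) or either Chic1-14kbD replicate (-0.0073 without replicate 1 and -0.043 without replicate 2).

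The share of chromosome 5 in the counts within chromosomes was 1.08% and 0.985% in 245kb-INV, 0.970% and 0.765% in Linx-51kb-INV, 0.963% and 1.03% in Chic1-4kbD, and 1.29% and 1.47% in Chic1-14kbD. Both Chic1-14kbD libraries were above the other 6. The mean over the libraries was 1.07 ± 0.216 percent (SD, n = 8), and the alleles did not pass the threshold (exact permutation test, p = 0.0571). Without Linx-51kb-INV replicate 1 the mean was 1.08%. Without F76-R61 and F83-R59 it was 1.04% and the alleles passed (same exact permutation test, p = 0.0286). These pairs were left out with their low counts in both Chic1-14kbD libraries known, which lowers the share more in the other 6. That p is therefore no independent check.

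In edgeR's comparisons of 2 alleles other than Chic1-14kbD, 0 of 488 chromosome 5 primer pairs passed the threshold. The test was the quasi-likelihood test in a single fit of the 8 libraries, with the library total as the offset and Benjamini-Hochberg adjustment over the 111310 pairs within chromosome 5 or within the X chromosome whose mean count was at least 10. Between 245kb-INV and Linx-51kb-INV, 0 of 488 chromosome 5 pairs had an adjusted p below 0.05, 19 had an unadjusted p below 0.05, and 0.181% of all pairs tested passed. Between 245kb-INV and Chic1-4kbD the count was 0, with 8 unadjusted and 0.102% of all pairs. Between Linx-51kb-INV and Chic1-4kbD, whose library titles share a prefix, it was 0, with 12 unadjusted and 0.0683% of all pairs. DESeq2 called 6, 3 and 3 chromosome 5 pairs in these comparisons. Without 245kb-INV replicate 1, edgeR called 5, 6 and 1, and without Linx-51kb-INV replicate 1 it called 3 between the inversions and 2 between Linx-51kb-INV and Chic1-4kbD. Among X pairs within 230 kb that lie in or across the edited stretch, 46, 57 and 50 of 2254 passed (2.04%, 2.53% and 2.22%), and among those on 1 side of it 47, 12 and 12 of 23644. Over all pairs tested, the test has little power for single pairs. In simulated counts for 245kb-INV against Linx-51kb-INV over all 111310 pairs, it recovered 0% of changes of 2 on the log2 scale, 4.00% of changes of 3 and 26.5% of changes of 5. The changed pairs were drawn from all pairs, whose median standard error in this comparison was 3.25, against 1.35 on chromosome 5. Recovery on chromosome 5 alone was not measured, and 0 calls do not show that the alleles were alike. On chromosome 5 the measured differences had a median size of 0.60, 0.63 and 0.64 on the log2 scale in these comparisons, with a median standard error of 1.35, 1.35 and 1.37.

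The F test over the 4 alleles passed 11 of 488 pairs (2.25%), where 1.95% of all pairs tested, 1.82% of X pairs within 230 kb on 1 side of the edited stretch (431 of 23644) and 11.2% of those in or across it (252 of 2254) passed. The chromosome 5 share was thus near the background. Against Chic1-14kbD, 7 pairs passed for 245kb-INV, 11 for Linx-51kb-INV and 10 for Chic1-4kbD, where 1.56%, 2.23% and 1.67% of all pairs passed. Of these, 5, 9 and 8 were higher in Chic1-14kbD, a direction that 0.271%, 0.561% and 0.210% of all pairs passed in. Among X pairs within 230 kb on 1 side of the edited stretch, 158, 419 and 182 of 23644 passed in that direction (0.668%, 1.77% and 0.770%), against 1.02%, 1.84% and 1.64% on chromosome 5. Both the region and X pairs at like distances thus held more of these calls than all pairs, and the difference between the region and those X pairs was not tested. All the comparisons share the Chic1-14kbD libraries. Relative to the library total, the median chromosome 5 pair was lower than in Chic1-14kbD by 0.51, 0.91 and 0.54 on the log2 scale. With the sum of the chromosome 5 counts as the offset, 2, 3 and 4 pairs passed, of which 2, 2 and 3 were lower in Chic1-14kbD. The split between higher and lower thus depended on the scale, as did the counts, and with an offset from the distance decay 3, 4 and 5 passed, of which 2, 3 and 3 were lower. When Chic1-14kbD was left out of the F test, 1 pair, F99-R98, passed (adjusted p = 0.00264 in edgeR).

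**Figure D4:**
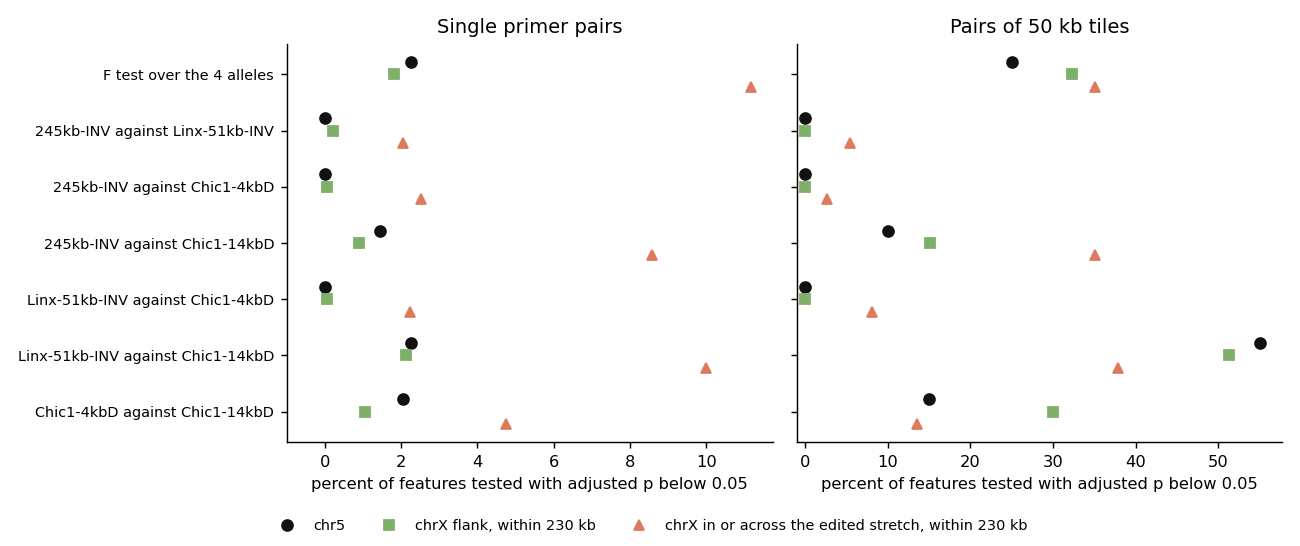
Percent of features with an adjusted p below 0.05 in edgeR's test for the F test over the 4 alleles and for each comparison of alleles, for single primer pairs (left) and pairs of 50 kb tiles (right). Circles are chromosome 5, squares are X-chromosomal features within 230 kb on 1 side of the edited stretch, and triangles are those in or across it, and in the comparisons without Chic1-14kbD all circles are at 0.

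F76-R61 was the pair with the smallest p of the F test. It had 3837 and 5320 reads in 245kb-INV, 5263 and 4910 in Linx-51kb-INV, 3951 and 2377 in Chic1-4kbD, and 819 and 43 in Chic1-14kbD. In CPM these were 227 and 254, 457 and 356, 376 and 290, and 38.9 and 26.6. The 6 libraries of the other alleles were all above both Chic1-14kbD libraries, and the pair was high for its distance in those too, with a log2 observed to expected ratio of 1.79 and 1.45. The log2 fold change against Chic1-14kbD was 2.86 (SE 0.34) for 245kb-INV, 3.62 (SE 0.35) for Linx-51kb-INV and 3.33 (SE 0.34) for Chic1-4kbD, with adjusted p = 6.17e-15, 8.04e-23 and 1.15e-19 in edgeR. The F test gave an adjusted p of 6.17e-22.

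F83-R59 behaved in the same way at a lower level. It had 951 and 1268 reads in 245kb-INV, 1062 and 1078 in Linx-51kb-INV, 768 and 649 in Chic1-4kbD, and 144 and 10 in Chic1-14kbD, or 56.4 and 60.6, 92.3 and 78.2, 73.0 and 79.3, and 6.84 and 6.19 CPM. In Chic1-14kbD the counts were close to the decay, with a log2 observed to expected ratio of -0.39 and -0.26, whereas they were from 2.90 to 3.98 above it in the other 6 libraries. The log2 fold change against Chic1-14kbD was 3.15 (SE 0.54) for 245kb-INV, 3.70 (SE 0.55) for Linx-51kb-INV and 3.53 (SE 0.55) for Chic1-4kbD, with adjusted p = 1.14e-06, 5.09e-09 and 2.92e-08 in edgeR. F76-R61 and F83-R59 passed against Chic1-14kbD in all 15 alternatives tried. They moved in the same direction between alleles as the pairs that join chromosome 5 to the X chromosome, and their relation was not tested. Of those, 59 of 27014 possible pairs had at least 10 CPM in each of the 6 libraries of the other alleles. At least 10 CPM in both Chic1-14kbD libraries was found in 10 pairs. The cutoff is relative to the library total, of which such pairs held less in Chic1-14kbD. These counts are therefore not separate from that difference.

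The other pairs called by the F test were mostly close neighbors with higher counts, relative to the library total, in Chic1-14kbD. Of these, F89-R92, F76-R75 and F99-R98 are described as examples, chosen after their values were seen. In 8 of the 11 pairs both Chic1-14kbD libraries were above the other 6, in 2 they were below, and in 1 they overlapped. Over all 488 chromosome 5 pairs tested, they were above in 113 (23.2%) and below in 2, F76-R61 and F83-R59 (0.410%). The shares were 6.07% above and 4.09% below over all pairs tested, and among X pairs within 230 kb on 1 side of the edited stretch they were above in 3791 and below in 395 of 23644. Of the 8 pairs called with both above, F89-R92 alone passed the F test with the sum of the chromosome 5 counts as the offset. With the distance decay as the offset, F89-R92 and F89-R69 passed. F89, at 133384257 to 133392385, took part in 5 of the 11, and 24 of its pairs were tested. F89-R92, with fragment centers 6.63 kb apart, had 188 and 87.9 CPM in 245kb-INV, 120 and 51.9 in Linx-51kb-INV, 72.8 and 46.2 in Chic1-4kbD, and 218 and 448 in Chic1-14kbD. Its lowest Chic1-14kbD value was thus above the highest of the others, though by less than the spread between the Chic1-14kbD libraries. The log2 fold change against Chic1-14kbD was -1.27 (SE 0.36) for 245kb-INV, -1.95 (SE 0.37) for Linx-51kb-INV and -2.48 (SE 0.38) for Chic1-4kbD, with adjusted p = 0.0308, 1.50e-05 and 8.63e-09 in edgeR.

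F76-R75, 6.25 kb apart, was at 280 and 172 CPM in 245kb-INV, 195 and 127 in Linx-51kb-INV, 183 and 160 in Chic1-4kbD, and 305 and 577 in Chic1-14kbD. Both Chic1-14kbD libraries were above the other 6, though by less than the spread between the Chic1-14kbD libraries. The log2 fold change against Chic1-14kbD was -1.45 for Linx-51kb-INV and -1.36 for Chic1-4kbD, with adjusted p = 0.000461 and 0.0018 in edgeR, and it was -0.96 for 245kb-INV, which did not pass (adjusted p = 0.117 in edgeR). F99-R98, 3.93 kb apart, was the called pair in which Chic1-14kbD did not stand apart. It was at 103.3 and 147 CPM in 245kb-INV, 93.1 and 92.3 in Linx-51kb-INV, 127 and 385 in Chic1-4kbD, and 121 and 130 in Chic1-14kbD. Only Chic1-4kbD replicate 2 stood apart, and the adjusted p of the F test was 0.0135 in edgeR.

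In all, 17 chromosome 5 pairs passed in at least 1 comparison or in the F test. Both Chic1-14kbD libraries were above the other 6 in 11 of them, below in 2, and overlapped with them in 4. They were above in 23.2% and below in 0.410% of the 488 chromosome 5 pairs tested, and in 6.07% and 4.09% of all pairs tested. Fragments lay within 25 kb in 10 of the 17 and more than 50 kb apart in 6, where 23.6% and 58.4% of the 488 tested pairs lay at such distances. Close pairs also had higher counts, and the part of count in this contrast was not tested. DESeq2's test over the 4 alleles called F76-R61, F76-R75, F83-R59, F89-R86 and F89-R94 of the 11. It called other pairs in place of the rest, which include F89-R92 and F99-R98. The alternatives counted next include 1 without Chic1-14kbD, which cannot call a difference of that allele. Of the 11 pairs called by the F test, F89-R92 passed it in 13 of 15 alternatives, F76-R61 and F83-R59 in 14, and the other 8 in 9 to 11.

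**Figure D5:**
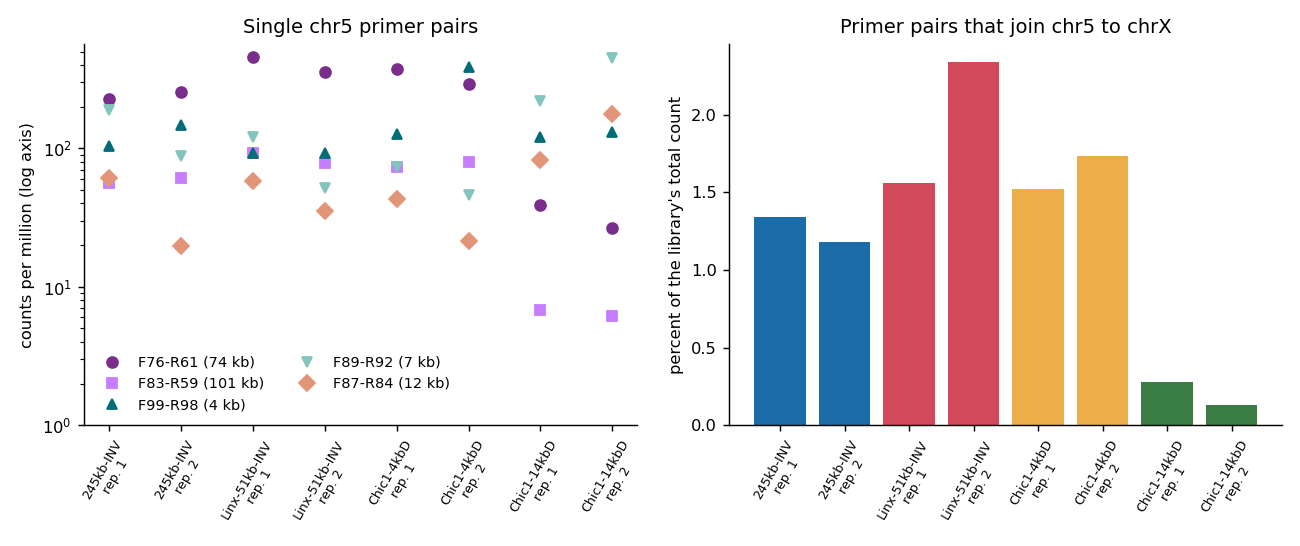
Left, CPM of 5 chromosome 5 primer pairs in each of the 8 libraries (logarithmic axis), where F76-R61 and F83-R59 are lowest in both Chic1-14kbD libraries, F89-R92 and F87-R84 are highest there, and F99-R98 is highest in Chic1-4kbD replicate 2. Right, the counts of pairs that join chromosome 5 to the X chromosome as a percent of the total of each library, from 0.130 and 0.278 in Chic1-14kbD to 2.34 in Linx-51kb-INV replicate 2.

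Summed over pairs of 50 kb tiles, chromosome 5 contacts passed the F test in 5 of 20 tile pairs, where 26.9% of all 3882 tile pairs, 32.3% of X tile pairs within 230 kb on 1 side of the edited stretch and 35.1% of those in or across it passed. Between 245kb-INV and Linx-51kb-INV, 245kb-INV and Chic1-4kbD, and Linx-51kb-INV and Chic1-4kbD, 0 of 20 passed in edgeR, with 5, 2 and 2 at an unadjusted p below 0.05, and 0.180%, 0.0515% and 0.0773% of all tile pairs passed. Of the X tile pairs within 230 kb, 0 of 384 on 1 side of the edited stretch and 2, 1 and 3 of 37 in or across it passed. In simulated counts for 245kb-INV against Linx-51kb-INV over all 3882 tile pairs, 18.5% of changes of 1 on the log2 scale and 76.5% of changes of 2 were recovered. The median standard error in this comparison was 0.405 over all tile pairs and 0.245 on chromosome 5, where recovery was not measured apart. The measured median size of a difference was 0.40, 0.16 and 0.33 on chromosome 5 and 0.25, 0.13 and 0.12 on 1 side of the edited stretch, on the log2 scale.

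Against Chic1-14kbD, 2 tile pairs passed for 245kb-INV, 11 for Linx-51kb-INV and 3 for Chic1-4kbD, where 20.1%, 37.5% and 28.4% of all tile pairs passed. All were higher in Chic1-14kbD, a direction that 2.78%, 8.73% and 3.76% of all tile pairs passed in. Of the X tile pairs within 230 kb on 1 side of the edited stretch, 55, 193 and 111 of 384 passed in that direction (14.3%, 50.3% and 28.9%), so the chromosome 5 shares, 10.0%, 55.0% and 15.0%, were near or below those at like distances on the X chromosome. The smallest p was that of contacts within the tile 133300001 to 133350000, at 2085 and 1751 CPM in 245kb-INV, 1767 and 1405 in Linx-51kb-INV, 1765 and 1651 in Chic1-4kbD, and 2416 and 3454 in Chic1-14kbD (adjusted p of the F test = 0.00558 in edgeR). Chic1-14kbD was the higher in 19 of the 20 tile pairs by the mean difference from the other alleles, and both of its libraries were above the other 6 in 11 (55.0%). The latter held for 11.2% of all tile pairs, with 35.1% below, and for 199 of 384 X tile pairs within 230 kb on 1 side of the edited stretch (51.8%), with 8 below. Of the same X tile pairs 331, 360 and 349 were higher in Chic1-14kbD than in 245kb-INV, Linx-51kb-INV and Chic1-4kbD, so these counts are not particular to chromosome 5. In 1 chromosome 5 tile pair, from 133250001 to 133300000 with 133300001 to 133350000, both were below, at 811 and 749 CPM against 820 to 1007. This tile pair holds F76-R61, and without F76-R61 and F83-R59 Chic1-14kbD was the higher in 20 of 20. With the sum of the chromosome 5 counts as the offset, 1 tile pair passed the F test in place of 5.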

How the data were processed

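The 5C libraries were made from undifferentiated E14 mESCs with 4 X-chromosomal alleles, 2 libraries per allele. The allele was taken from the labels, which give no replicate numbers, and libraries were numbered within an allele only to name them. Single-end reads were trimmed by the authors, mapped with Bowtie2 to all pairs of forward and reverse primers in the pipeline 5C-Pro, and deposited as raw counts of reads per primer pair, before their removal of inefficient primers, pooling, binning and normalization. There are no molecular identifiers, so PCR duplicates remain in the counts. Replicate counts were not pooled. Primer positions are in mm9 (NCBIM37 per the labels), and gene positions and fragment ends were read from the NCBIM37 sequence and a GENCODE annotation of that build.

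A primer was left out if its summed count was below 0.1 times, or above 10 times, the median of its type and chromosome. Distance was taken between fragment centers. The decay used 8 bins of equal log width from 4 to 230 kb, and the expected count of a pair came from the decay of its library and chromosome. A pseudocount of 0.5 was added to counts before logarithms of single pairs. Primer pairs (mean count 10 or more) and pairs of 50 kb tiles (mean count 50 or more) were tested in edgeR 4.0.16 under R 4.3.3, with its functions glmQLFit and glmQLFTest, offset by the log of the library total, with a threshold of 0.05 on the Benjamini-Hochberg adjusted p. Values per library were compared by exact permutation, two-sided. Standard errors were derived from the fold change and the F statistic. The steps were tested on simulated counts. DESeq2 1.42.0, TMM factors, other offsets, count minimums, tiles and squares, and leaving out each library were the alternatives.

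The text names the gene that overlaps the region and those that bound it, the pair with the smallest p of the F test, the 3 pairs beyond 50 kb furthest above and below the decay with a mean count of at least 50, and the primers with the highest and lowest summed counts. Members, lists and tests were chosen with earlier results of these data known. Omission of F76-R61 and F83-R59, the F test without Chic1-14kbD and the removal of primer means were added after seeing the data. Library titles start with prefixes that the labels leave unexplained. Linx-51kb-INV and Chic1-4kbD share 1 prefix, whereas for 245kb-INV and Chic1-14kbD prefix and allele cannot be told apart. With 2 libraries per allele, of which those of Chic1-14kbD share a clone, p-values measure the spread between these libraries only.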

Additional observations from a re-analysis of the deposited data

Results flagged for a closer look

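Primer pairs that join chromosome 5 to the X chromosome lie outside the tests between alleles, which used pairs within a chromosome, and held reads in every library. They held 1.34% and 1.18% of the total count in 245kb-INV, 1.56% and 2.34% in Linx-51kb-INV, 1.52% and 1.74% in Chic1-4kbD, and 0.278% and 0.130% in Chic1-14kbD, with 95% Wilson intervals at most 0.0179 percentage points wide. Both Chic1-14kbD libraries, the deepest and the shallowest of the 8, were below the other 6. Of 27014 possible pairs of this kind, 12296 held a read in at least 1 library, 6345 in 1 library only and 100 in all 8. The recurrent ones, those with at least 10 CPM in each of the 6 libraries of the other alleles, were unevenly spread over the chromosome 5 primers, as F62 and F85 took part in 9 each, R106 in 5 and F89 in 4 of the 59. Among X-chromosomal pairs more than 500 kb apart, 213 had at least 50 CPM in each of those 6 libraries, and 38 had at least 50 CPM in both Chic1-14kbD libraries. The cause of these differences was not tested.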

How the results depend on the processing

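No paired analysis was possible because the labels give no replicate numbers, and the numbers used here only name the libraries. Slope, level, slope difference, replicate spread and insulation minimum kept their side of the threshold, where one was tested, under every alternative run. Over the alternatives other than leaving out a library, the slope difference ranged from 0.0574 (exact permutation test, p = 0.0469), with the median of the pairs in a bin, to 0.105, the level from -1.08, with the same median, to -0.58, and the insulation minimum from -0.94, with a square of 50 kb, to -0.33, with a square of 150 kb or without F76-R61 and F83-R59. Without F76-R61 and F83-R59 the chromosome 5 share was 1.04% and passed (exact permutation test, p = 0.0286). This is no independent check, since those pairs were left out with their low Chic1-14kbD counts known. Of 488 primer pairs, the F test called 5 with the distance decay and 4 with the chromosome 5 sum as the offset, and 1 without the Chic1-14kbD allele, in place of 11. Of 20 tile pairs it called 17 with TMM factors and 17 with DESeq2, 1 with either of the other offsets, 3 of 6 with tiles of 100 kb, and 0 without Chic1-14kbD, in place of 5. For 245kb-INV against Chic1-14kbD, 3 pairs were called with TMM factors, 3 with the decay and 2 with the chromosome 5 sum, in place of 7. For Linx-51kb-INV against Chic1-14kbD, 4 were called with the decay, 3 with the sum and 18 with DESeq2, in place of 11. For Chic1-4kbD against Chic1-14kbD, 5 were called with the decay, 4 with the sum and 17 in a fit of their 4 libraries alone, in place of 10. Where edgeR called 0, DESeq2 called 6 pairs between 245kb-INV and Linx-51kb-INV, 3 between 245kb-INV and Chic1-4kbD and 3 between Linx-51kb-INV and Chic1-4kbD, and for the last edgeR called 1 with the decay as the offset and 1 with no count minimum. Leaving out each library in turn gave 4 to 20 pairs and 2 to 7 tile pairs in the F test, with 20 without 245kb-INV replicate 1, 4 without Chic1-14kbD replicate 2, and 2 tile pairs without Linx-51kb-INV replicate 2. It gave 2 to 17 pairs for 245kb-INV against Chic1-14kbD, 3 to 16 for Linx-51kb-INV against Chic1-14kbD, 3 to 13 for Chic1-4kbD against Chic1-14kbD, 0 to 5 for 245kb-INV against Linx-51kb-INV, 0 to 6 for 245kb-INV against Chic1-4kbD and 0 to 2 for Linx-51kb-INV against Chic1-4kbD, where the lone library of an allele is assumed to vary like the others. The share ranged from 1.01% to 1.11%, the slope from -0.79 to -0.77, the slope difference from 0.103 to 0.117, the level from -0.58 to -0.54, the replicate spread ratio from -0.15 to 0.049, the insulation minimum from -0.50 to -0.45 and the difference in map similarity from -0.043 to 0.104, with its sign turned without Chic1-4kbD replicate 2 (-0.0039), Chic1-14kbD replicate 1 (-0.0073) and replicate 2 (-0.043). Of the refits of the log2 fold changes of called pairs, 292 passed the threshold in the same direction, 128 did not pass it and 0 changed direction. In Chic1-14kbD replicate 2 a kept chromosome 5 pair had a median count of 11, so its single values are the least precise.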
